A study of Mus musculus with 7 samples.

Results

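The transcripts described here are those of 9 Toll-like receptors (Tlr1, Tlr2, Tlr3, Tlr4, Tlr6, Tlr7, Tlr8, Tlr9 and Tlr13) and of Myd88, the adaptor that most of these receptors use. They were chosen by name, and all 10 genes were found among the 21965 genes of the count table through their Ensembl identifiers. All 10 also passed the filter on low counts that left 15743 genes for testing. RNASeq was done on mouse spinal cord that had received a moderate contusion at T9 (50 kdyn force, accepted at a displacement of 400 to 600 µm). A 5 mm segment holding the injury epicenter was taken at dpi 3, that is 3 days after injury, from perfused mice at a fixed morning zeitgeber time. The mice were 8 to 10 weeks old. The group labelled Bmal1-/- had 3 mice (2 females and 1 male) that carry the germline null allele of the strain B6.129-Arntltm1Bra/J (C57BL/6 by the labels, C57Bl/6J by the methods) and were bred from heterozygotes, so that the allele is in every cell type and no tissue can be singled out. The WT group had 4 C57BL/6 mice (again C57Bl/6J by the methods, 2 females and 2 males), of which 1 was a littermate of the knockouts and the others came from the supplier. Every mouse of both groups was injured, and no uninjured cord is part of these counts. Each library came from 1 mouse.

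Toll-like receptors are sensors of the innate immune system that bind microbial molecules and molecules released by damaged tissue. TLR1, TLR2, TLR4 and TLR6 sit mainly at the cell surface, where TLR2 pairs with TLR1 or TLR6 to sense lipoproteins and TLR4 senses lipopolysaccharide with its partner MD-2. TLR3, TLR7, TLR8, TLR9 and TLR13 sense nucleic acids from endosomes. All of them except TLR3 signal through MYD88 to NF-kB, and in the injured cord microglia and infiltrating macrophages are their best known sources, although TLR3 is also made by astrocytes.

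The libraries held 38529644 to 44096737 counts. Levels are given as CPM, counts scaled by library size and TMM factors, and as TPM, which also divides by exon length, wherever genes are compared with each other. The targeted gene, Arntl, had 949, 1041 and 887 counts among libraries labelled Bmal1-/- and 576, 594, 476 and 532 in WT, so its count was higher under the knockout label and does not check that label. The antisense gene Gm45355 overlaps it. Per3, a clock gene that BMAL1 activates, was at 7.68, 7.13 and 7.46 CPM under the knockout label and at 32.3, 37.1, 26.3 and 41.4 CPM in WT, without overlap (log2 fold change -2.21, edgeR adjusted p = 0.00115). Nr1d1 and Dbp, clock genes of the same kind, had log2 fold changes of -2.51 and -1.85 (edgeR adjusted p = 0.000456 and 0.00328), and each overlaps an antisense gene. These 3 genes, which BMAL1 activates, were lower under the knockout label, the direction that the label implies. Directions below compare libraries by their labels. WT replicate 3 stood apart from the other WT libraries, with the highest summed level of leukocyte genes (1692 CPM) and the lowest of neuronal genes (1521 CPM) among the 7 libraries.

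None of the 10 transcripts passed the test of genotype. In edgeR's quasi-likelihood test, adjusted by Benjamini-Hochberg over all tested genes, 0 of 10 reached an adjusted p of 0.05, where 1.57% of all tested genes did (0.915% lower and 0.654% higher). At an unadjusted p under 0.05 there was 1 of 10, Tlr4, against 20.9% of all genes. None was called by any of the 15 alternative fits, among them DESeq2, limma-voom and the fit without WT replicate 3, which called 4.66% of its genes. The lowest adjusted p over these fits was 0.0756, for Tlr4 in DESeq2, which called 9.13% of its genes. Log2 fold changes were below 0 in 7 of 10 members, where 51.1% of all tested genes were below 0, and their median was -0.16 over the members and -0.0057 over all genes. Without WT replicate 3, 5 of 10 members were below 0, where 50.5% of the genes in that fit were, and the members' median was -0.016. The data did set limits on the sizes. The 95% interval of the fold change lay wholly within 1.5-fold in either direction for 4 of the 10 genes, Tlr2, Tlr3, Tlr6 and Tlr7.

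**Figure D1:**
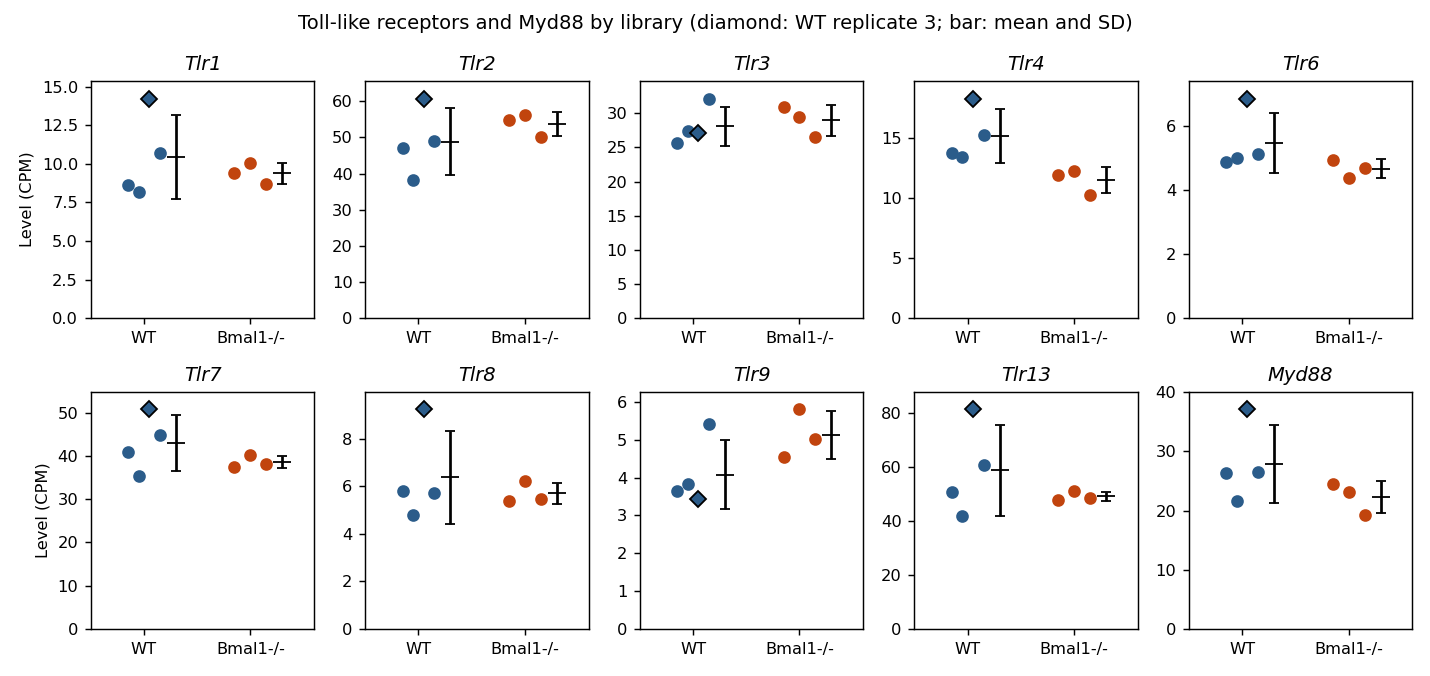
Level in CPM (vertical axes, each from 0) of each of the 10 transcripts in the 4 WT libraries (blue) and the 3 libraries labelled Bmal1-/- (orange), with group mean and SD as black bars and WT replicate 3 as a diamond. Only for Tlr4 do the groups not overlap, and the diamond is the highest point for 8 of 10 genes.

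The sequence before each start site was read from RefSeq (GRCm38.p6), where 10 promoters matched 8 of the genes, Tlr1, Tlr2, Tlr3, Tlr6, Tlr8, Tlr9, Tlr13 and Myd88. The 250 bases upstream of each start were searched on both strands for the E-box CACGTG, the element bound by BMAL1 with its partners, for the NF-kB element, for the PU.1 core GAGGAA, for the interferon element ISRE, 2 copies of GAAA with any 2 bases between them, and for the ROR and REV-ERB core AGGTCA. A part of the matches follows, read on the strand of the gene, with the matched letters in capitals. Some windows are short because the match lies in an exon of another annotated transcript.
Tlr1, E-box, chr5:64932879-64932904 (minus strand): ggaaggcataCACGTGtccccatctc
Tlr2, NF-kB, chr3:83841768-83841821 (minus strand): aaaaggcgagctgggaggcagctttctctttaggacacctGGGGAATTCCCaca
Tlr3, NF-kB, chr8:45410572-45410601 (minus strand): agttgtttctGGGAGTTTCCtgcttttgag
Tlr8, PU.1 core on the opposite strand, chrX:167264361-167264446 (minus strand): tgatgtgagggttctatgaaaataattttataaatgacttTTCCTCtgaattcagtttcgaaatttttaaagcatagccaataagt
Tlr9, PU.1 core, chr9:106222446-106222531 (plus strand): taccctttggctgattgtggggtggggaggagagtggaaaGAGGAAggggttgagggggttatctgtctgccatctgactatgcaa
Tlr13, PU.1 core, chrX:106143152-106143203 (plus strand): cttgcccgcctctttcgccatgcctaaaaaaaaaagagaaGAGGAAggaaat
Myd88, interferon element, chr9:119340042-119340098 (minus strand): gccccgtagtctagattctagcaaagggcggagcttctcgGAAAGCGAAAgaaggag

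Among these 8 genes, the E-box was found for 1 (Tlr1), 195 bases before a start that lies inside the gene, and 6.02% of all 32851 promoters in the table hold it. The NF-kB element was found for 2 genes, Tlr2, where a pair of matches overlaps, and Tlr3, and in 7.25% of all promoters. The PU.1 core was found for 4 genes, the 3 shown and the outer promoter of Tlr1, and in 23.3% of all promoters. The interferon element was found for Myd88 and for an inner promoter of Tlr6, and in 2.98% of all promoters. The start of that Tlr6 promoter was not found in the transcript sequences of Tlr6 used here. The ROR and REV-ERB core was found for Tlr2 and Tlr9, and in 14% of all promoters. These are matches of letters, and no binding was measured.

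Per unit of transcript length, the receptors spanned a wide range in the contused cord. Over the 7 libraries Tlr2 was the most abundant at 64.5 ± 7.65 TPM (SD, n = 7), followed by Tlr13 at 48.5 ± 10.2, Tlr7 at 38.6 ± 4.03 and Myd88 at 37.8 ± 7.49. Tlr3 followed at 20.97 ± 1.80 TPM. Tlr1 (11.4 ± 1.99 TPM) and Tlr4 (9.38 ± 1.61) came next, and Tlr8 (6.48 ± 1.33), Tlr6 (5.27 ± 0.69) and Tlr9 (5.00 ± 1.04) were the least abundant. Most steps of this order were the same in every library. The exceptions were Tlr7 and Myd88, and Tlr6 and Tlr9, where the first of each pair was higher in 4 of 7 libraries, and Tlr8 and Tlr6, where it was higher in 6 of 7. The ranges over libraries did not overlap between Myd88 and Tlr3 or between Tlr3 and Tlr1, while every other pair of neighbours overlapped. A bulk library of this kind cannot tell fewer cells of a type from less RNA per cell.

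Among the surface receptors, Tlr2 (ENSMUSG00000027995, chromosome 3 of GRCm38, 83836272 to 83841767, minus strand), the shared partner of TLR1 and TLR6, had levels of 54.7, 56.3 and 50.0 CPM among libraries labelled Bmal1-/-. In WT it stood at 47.0, 38.2, 60.7 and 48.9 CPM. WT replicate 3 was the highest of the 7 libraries, while the other 3 WT libraries lay below every library labelled Bmal1-/-. Group means were 53.7 ± 3.26 CPM (SD, n = 3) against 48.7 ± 9.25 (SD, n = 4), and the log2 fold change was 0.14 (95% interval -0.20 to 0.48). The adjusted p was 0.555 in edgeR's quasi-likelihood test, and without WT replicate 3 the log2 fold change was 0.26 with an adjusted p of 0.178. Without WT replicate 2, the lowest library, it was 0.034 with an adjusted p of 0.869.

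Tlr4 (ENSMUSG00000039005, chromosome 4, 66827584 to 66930284, plus strand) had levels of 11.9, 12.3 and 10.3 CPM among libraries labelled Bmal1-/- and at 13.8, 13.4, 18.3 and 15.3 CPM in WT. All 3 values lay under all 4 WT values, and Tlr4 was the only member whose groups did not overlap. Of all tested genes, 13.5% had every value labelled Bmal1-/- under every WT value, 13.4% had every value above, and 26.9% did not overlap either way. Group means were 11.5 ± 1.07 CPM (SD, n = 3) and 15.2 ± 2.22 (SD, n = 4), a ratio of 0.757. Its log2 fold change was -0.40 (standard error 0.13, 95% interval -0.71 to -0.09), and with an adjusted p of 0.172 (edgeR's quasi-likelihood test, Benjamini-Hochberg adjusted; unadjusted p = 0.0177) it did not pass. Over the 15 alternative fits it ran from -0.46 to -0.30 and its adjusted p from 0.0756 to 0.532. Within females the levels were 11.9 and 12.3 CPM against 13.8 and 13.4, and within males 10.3 CPM against 18.3 and 15.3.

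Tlr1 (ENSMUSG00000044827, chromosome 5, 64924679 to 64933563, minus strand) and Tlr6 (ENSMUSG00000051498, chromosome 5, 64952031 to 64960097, minus strand), the co-receptors of TLR2, are neighbours in the genome. Tlr1 had levels of 9.38, 10.1 and 8.70 CPM among libraries labelled Bmal1-/- and at 8.65, 8.20, 14.2 and 10.7 CPM in WT. Tlr6 had levels of 4.96, 4.39 and 4.69 CPM against 4.87, 5.01, 6.86 and 5.12 CPM. For both genes the groups overlapped and WT replicate 3 was the highest library. Tlr1 had a log2 fold change of -0.15 (95% interval -0.62 to 0.31) and 0.03 without WT replicate 3. For Tlr6 it was -0.22 (95% interval -0.58 to 0.13) and -0.10 without that library. The adjusted p values of edgeR's quasi-likelihood test were 0.638 and 0.388. These related genes share sequence: 11.5% of the 75-base windows of Tlr1 occur in Tlr6 and 9.44% of those of Tlr6 occur in Tlr1. Reads there cannot be told apart by sequence, so the values of both are uncertain to that extent.

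Among the endosomal receptors, Tlr13 (ENSMUSG00000033777, chromosome X, 106143204 to 106160493, plus strand), which senses bacterial ribosomal RNA, had levels of 47.7, 51.1 and 48.7 CPM among libraries labelled Bmal1-/- and at 50.9, 42.1, 81.5 and 60.7 CPM in WT. The libraries labelled Bmal1-/- lay close together, inside the range of WT, and WT replicate 3 was 1.59 times the mean of the other WT libraries. Its log2 fold change was -0.26 (95% interval -0.74 to 0.22, edgeR adjusted p = 0.454), and -0.06 without WT replicate 3.

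Tlr7 (ENSMUSG00000044583, chromosome X, 167304929 to 167330558, minus strand), a sensor of single-stranded RNA, had levels of 37.6, 40.2 and 38.3 CPM against 40.9, 35.5, 50.8 and 44.8 CPM in WT. Tlr8 (ENSMUSG00000040522, chromosome X, 167242696 to 167264329, minus strand), its neighbour and relative, had levels of 5.39, 6.22 and 5.48 CPM against 5.79, 4.78, 9.24 and 5.70 CPM. In both, the groups overlapped and WT replicate 3 was the highest library. The log2 fold changes were -0.15 for Tlr7 (95% interval -0.43 to 0.12) and -0.16 for Tlr8 (95% interval -0.69 to 0.37), with adjusted p values of 0.440 and 0.668 in edgeR's quasi-likelihood test. Without WT replicate 3 they were -0.06 and 0.07, so that the sign of Tlr8 rested on that library.

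Tlr3 (ENSMUSG00000031639, chromosome 8, 45395665 to 45411080, minus strand), the sensor of double-stranded RNA that signals through TRIF, and Tlr9 (ENSMUSG00000045322, chromosome 9, 106222598 to 106226883, plus strand), the sensor of unmethylated CpG DNA, were the members that did not peak in WT replicate 3. Tlr3 had levels of 30.9, 29.5 and 26.5 CPM among libraries labelled Bmal1-/- and at 25.6, 27.5, 27.1 and 32.2 CPM in WT, fully intermixed. Its log2 fold change of 0.04 had the narrowest 95% interval of the 10, from -0.18 to 0.27 (edgeR adjusted p = 0.80). Tlr9 had levels of 4.55, 5.80 and 5.02 CPM against 3.65, 3.83, 3.42 and 5.42 CPM. WT replicate 3 was the lowest of the 7 libraries for Tlr9, and WT replicate 4 lay among the libraries labelled Bmal1-/-. The log2 fold change of Tlr9 was 0.33 (95% interval -0.11 to 0.77, edgeR adjusted p = 0.330), the highest of the 10. Without WT replicate 4 it was 0.50 (edgeR adjusted p = 0.187), and without WT replicate 3 it was 0.25 (edgeR adjusted p = 0.446). Without Bmal1-/- replicate 2, the highest library for Tlr9, it was 0.23 (edgeR adjusted p = 0.553). Tlr9 rested on 137 to 250 counts per library, for which counting alone gives an error of up to 8.54%. An antisense gene, Gm45542, overlaps Tlr3, and 0.992% of the windows of Tlr3 occur in it.

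Myd88 (ENSMUSG00000032508, chromosome 9, 119335934 to 119341411, minus strand), the adaptor that recruits the IRAK kinases, had levels of 24.5, 23.1 and 19.2 CPM among libraries labelled Bmal1-/- and at 26.3, 21.6, 37.1 and 26.6 CPM in WT. All 3 values lay under 3 of the WT values, while WT replicate 2 lay among them. For Myd88 the log2 fold change was -0.33 (95% interval -0.76 to 0.11, edgeR adjusted p = 0.327), and -0.16 without WT replicate 3. The antisense gene Acaa1a shares 6.29% of the windows of Myd88, so its level is uncertain where strand was not used in counting.

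**Figure D2:**
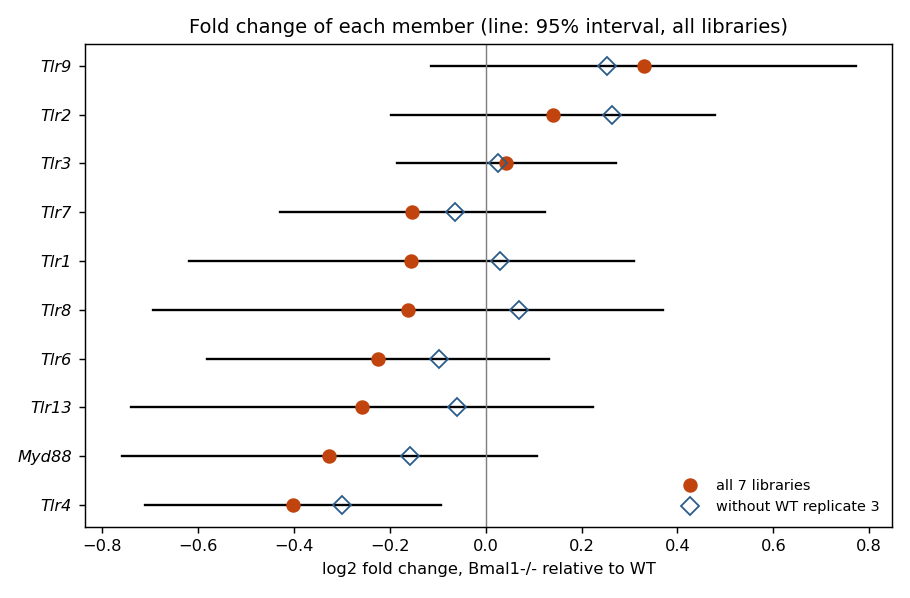
log2 fold change in Bmal1-/- against WT, by the labels (horizontal axis) for each of the 10 transcripts, with the 95% interval from edgeR (lines), and the same value without WT replicate 3 (open diamonds). The interval of Tlr4 ends at -0.09 and is the only one that leaves out 0.

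The spread of these genes over the WT mice moved with WT replicate 3. That library was the highest of the 7 for 8 of 10 members and for 33.9% of all tested genes. Its level was between 1.26 and 1.70 times the mean of the other WT libraries for these 8, and 0.955 times for Tlr3 and 0.795 times for Tlr9. The summed level of 9 leukocyte genes (Ptprc, Itgam, Aif1, Csf1r, Spi1, Tyrobp, Fcer1g, Laptm5 and Cd52) was 1.35 times that mean in the same library, and it was 1092 to 1259 CPM among libraries labelled Bmal1-/- and 1073 to 1692 CPM in WT. The summed level of 10 macrophage genes was 2148 to 2908 CPM against 2115 to 4258 CPM, and that of 8 microglial genes 1322 to 1572 CPM against 1441 to 1852 CPM. None of these marker genes was called, and all were detected. Log2 fold changes were below 0 for 9 of 10 macrophage genes (median -0.42) and all 9 leukocyte genes (median -0.20). They were below 0 for 6 of 8 microglial genes (median -0.15), where 51.1% of all tested genes were. An unadjusted p under 0.05 in edgeR's quasi-likelihood test was reached by 4 macrophage, 0 leukocyte and 2 microglial genes, against 20.9% of all genes. Of other cells known to carry these receptors, 8 neutrophil genes summed to 13.9 to 23.0 CPM against 15.6 to 47.3 CPM, 4 B cell genes to at most 2.65 CPM in any library, and the 4 T cell genes in the table to at most 0.48 CPM. All 8 neutrophil genes had log2 fold changes below 0 (median -0.72). For 2 of them the unadjusted p was under 0.05 in edgeR's quasi-likelihood test, and 0 were called. The neutrophil sum of WT replicate 3 was 2.06 times the mean of the other WT libraries. Sums of some other tissue markers also differed by label. The summed level of 5 skeletal muscle genes was 3.46 to 4.80 CPM among libraries labelled Bmal1-/- and 36.4 to 54.6 CPM in WT, with 4 of 5 called lower, and that of 5 endothelial genes was 312 to 358 CPM against 365 to 594 CPM, with 1 of 5 called lower. Sums of 5 neuronal genes (3519 to 4236 CPM against 1521 to 3491) did not overlap between the groups. All 5 had log2 fold changes above 0, and 1 of them did not overlap by itself. Sums of 5 astrocyte genes (12049 to 14799 CPM against 8682 to 12046) were apart by a narrow margin. The astrocyte genes were split, with 2 below 0, 3 above 0 and a median log2 fold change of 0.022. Sums of 5 oligodendrocyte genes (22021 to 27340 CPM against 22606 to 33610) overlapped. None of the neuronal, astrocyte and oligodendrocyte genes was called. Of all tested genes, 26.9% did not overlap either way. The part of cell numbers in the receptor levels was not tested.

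The same levels were also set relative to the leukocyte genes, a scale chosen after the values were seen and therefore given as a description. Per 1000 CPM of the 9 leukocyte genes, the coefficient of variation over the WT libraries was smaller than on the CPM scale for 8 of 10 members, and for Tlr13 it was 9.09% where it had been 28.8%. On this scale Tlr2 was at 44.0, 44.7 and 45.8 among libraries labelled Bmal1-/- and at 39.1, 35.6, 35.9 and 33.0 in WT. Every value with the knockout label lay above every WT value, while on the CPM scale the groups overlapped. The leukocyte sum itself had a mean of 1199 ± 92.7 CPM (SD, n = 3) under the knockout label and 1362 ± 278 in WT (SD, n = 4). Division by this sum therefore raises values with the knockout label relative to WT on average. Tlr4 was at 9.60, 9.77 and 9.44 against 11.5, 12.5, 10.8 and 10.3, with every value below. The other 8 members overlapped. With 1 member higher and 1 lower, 2 of 10 did not overlap on this scale, where 10.2% of all tested genes did not (5.11% higher and 5.08% lower). On the CPM scale it was 1 of 10, where 26.9% of all tested genes did not overlap. The leukocyte sum peaked in WT replicate 3, as did 8 of 10 members on the CPM scale but 33.9% of all tested genes. The share of members and that of all genes are therefore not like for like, and no excess is read from them.

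**Figure D3:**
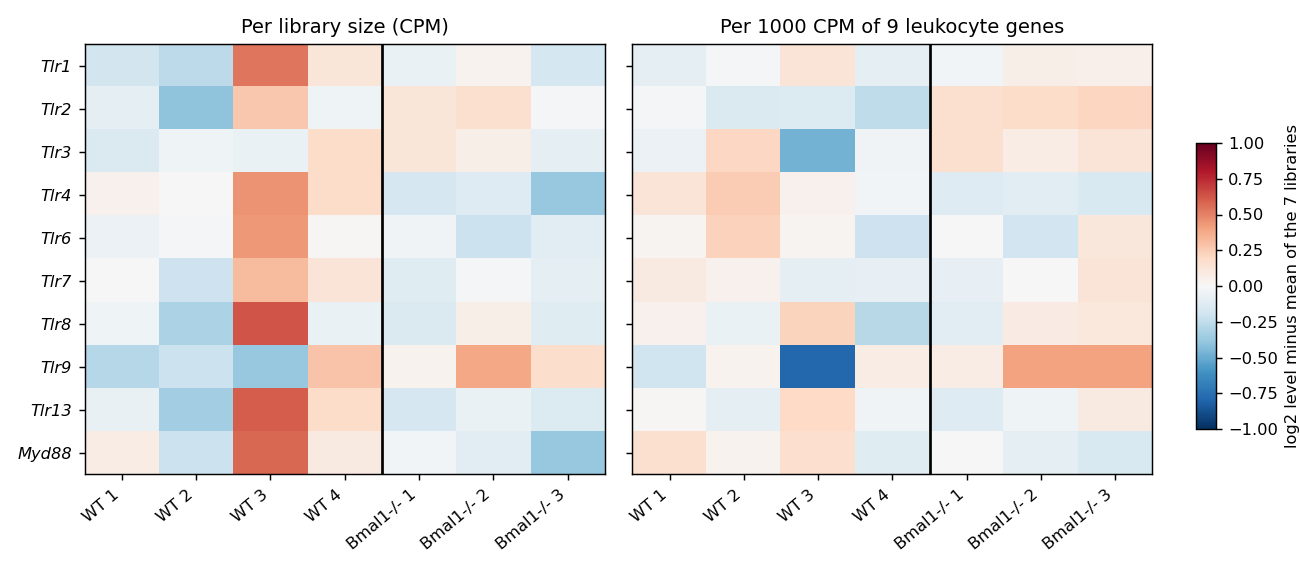
log2 level of each transcript in each library minus its mean over the 7 libraries, as colour from blue (lower) to red (higher), on the CPM scale (left) and per 1000 CPM of 9 leukocyte genes (right). WT replicate 3 is the highest library for 8 of 10 genes on the left, and Tlr2 and Tlr4 are the only rows whose groups do not overlap on the right.

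The makeup of the receptor pool can be described without any marker gene. The TPM values of the 9 receptors summed to 204 ± 6.18 among libraries labelled Bmal1-/- (SD, n = 3) and to 214 ± 31.9 in WT (SD, n = 4). Tlr2 made up 34.0%, 33.4% and 32.5% of this sum among libraries labelled Bmal1-/- and 30.3%, 28.1%, 28.9% and 28.0% in WT. Tlr4 made up 4.02%, 3.96% and 3.63% against 4.84%, 5.36%, 4.73% and 4.74%. These were the 2 of 9 receptors whose shares did not overlap between the groups, where 12.6% of all tested genes did not when set against the same sum (3.24% higher and 9.4% lower). The receptors are part of that sum and the other genes are not, so these figures are not like for like. The ratio of Tlr2 CPM to Tlr4 CPM was 4.58, 4.58 and 4.86 among libraries labelled Bmal1-/- and 3.40, 2.85, 3.31 and 3.20 in WT, with means of 4.67 ± 0.16 (SD, n = 3) and 3.19 ± 0.24 (SD, n = 4). The pair was picked for this difference, so the ratio is a description without a test. Shares of a sum are not independent of each other.

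**Figure D4:**
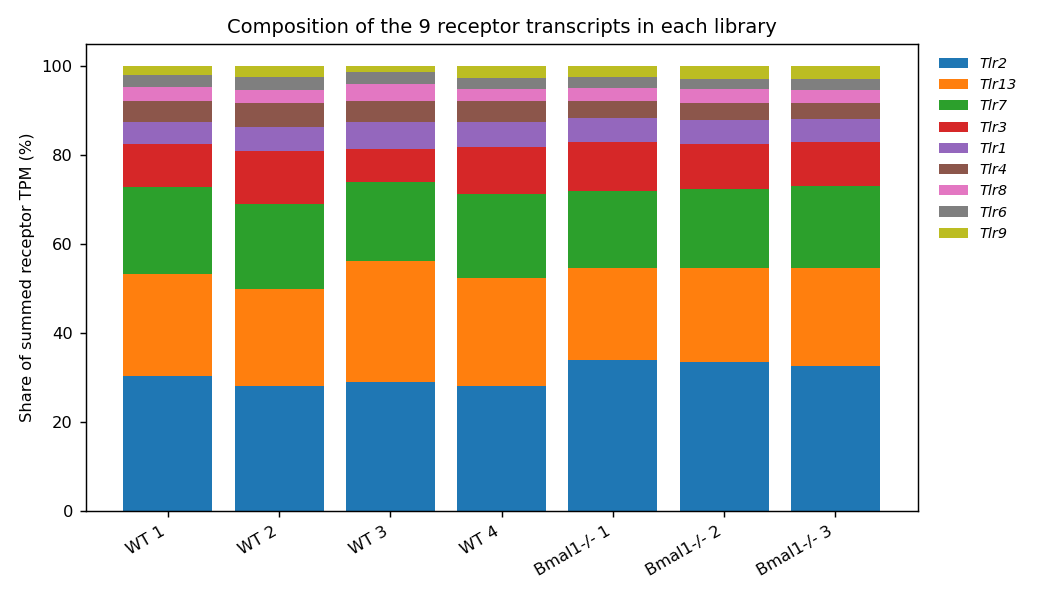
Share of the summed TPM of the 9 receptors (vertical axis, percent) taken by each receptor in each library (bars; WT replicates 1 to 4, then the 3 libraries labelled Bmal1-/-). The lowest segment, Tlr2, ends between 28.0% and 30.3% in WT and between 32.5% and 34.0% among libraries labelled Bmal1-/-.

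The genotype comparison was also set within the sexes, with 1 male labelled Bmal1-/-. The difference between the effect in males and that in females was not called for any of the 10 members (lowest adjusted p = 0.400 in edgeR's quasi-likelihood test of the interaction, unadjusted p under 0.05 for 2 of 10, against 12.3% of all tested genes), and it was below 0 for all 10, where 51% of all tested genes were. The 2 members under that unadjusted threshold were Tlr1 and Tlr4, and Tlr2 was not among them. In females Tlr2 was at 54.7 and 56.3 CPM against 47.0 and 38.2 CPM in WT. In males it was at 50.0 CPM against 60.7 and 48.9 CPM in WT. WT replicate 3 is 1 of the 2 WT males, and sex and that library cannot be told apart here.

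For each member, the 3 genes of most similar pattern over the 7 libraries were found by the root mean square difference of log2 CPM after centring each gene. Among those of Tlr13 were Abcc3 and Cd68 (0.032 and 0.049), of which Cd68 encodes a lysosomal protein of macrophages. Tlr1 lay nearest to Stxbp2, Tent5c and Trem2 (0.033, 0.038 and 0.044), of which Trem2 encodes a lipid receptor of microglia and macrophages. Tlr7 lay nearest to Csf1, Psme1 and Rps3 (0.044, 0.047 and 0.047), of which Csf1 encodes a growth factor of macrophages. Tlr4 lay nearest to Zfp36l2, Dsn1 and Rcc1 (0.036, 0.037 and 0.039), and Tlr2 to Tceanc, Rcl1 and Slamf9 (0.040, 0.048 and 0.058). The nearest gene was Nr2c2ap for Tlr6 (0.026), Cdk6 for Myd88 (0.042), Ddr1 for Tlr3 (0.052), Ucn2 for Tlr8 (0.057) and the peptidase gene Cpm for Tlr9 (0.076). With 7 points per gene and 15743 genes to choose from, close neighbours of some kind are found for any gene.

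The rest of the pathway was followed through 9 lists with 71 genes, of which 68 passed the filter and 0 were called in either direction in edgeR's quasi-likelihood test. At an unadjusted p under 0.05 there were 8 lower and 3 higher, where 12.2% and 8.64% of all tested genes were. Groups did not overlap for 12 of the 68 genes in the lower direction and 4 in the higher, where 13.5% and 13.4% of all tested genes did not. Some genes below were named for the lowest p in their list, so their lack of overlap is a description. Log2 fold changes were below 0 for 52 of the 68 genes, with a median of -0.19. WT replicate 3 was the highest library for 44 of the 68, and without it 45 were below 0 and the median was -0.070. In DESeq2 3 of the 68 genes were called lower, namely Ly86, Ptgs2 and Tnc, where 5.63% of all genes with an adjusted p were.

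Of the other mouse receptors, Tlr11 did not pass the filter, and Tlr5, the sensor of flagellin, was at 1.21 ± 0.043 CPM (SD, n = 3) among libraries labelled Bmal1-/- and at 1.61 ± 0.30 (SD, n = 4) in WT (edgeR adjusted p = 0.260). The 6 co-receptor genes, which include the lipopolysaccharide receptor Cd14 and the TLR4 partner Ly96, were all below 0 with a median log2 fold change of -0.40. Ly96 was close to 0, at -0.057. Without WT replicate 3, the highest library for 4 of the 6, 5 of the 6 were below 0 and the median was -0.28. Ly86 encodes MD-1, the partner of the receptor relative RP105. Its levels were 76.3, 75.9 and 70.6 CPM against 91.5, 83.5, 112 and 119 CPM in WT, without overlap. Its log2 fold change was -0.45 (standard error 0.13, edgeR adjusted p = 0.134).

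The 7 trafficking genes, which bring the endosomal receptors to their compartment and cleave them there, had a median log2 fold change of -0.18, and of -0.025 without WT replicate 3. Ctsb, a lysosomal protease, was at 3608 ± 265 CPM (SD, n = 3) against 4076 ± 895 (SD, n = 4), and Hsp90b1, the chaperone of the receptors in the endoplasmic reticulum, at 554 ± 33.2 CPM against 650 ± 85.2. Of the 5 other adaptors, Tirap, the bridge from TLR2 and TLR4 to MYD88, was at 11.5, 12.3 and 10.1 CPM against 13.4, 13.2, 15.2 and 13.6 CPM in WT. All of its values with the knockout label lay below WT, and its log2 fold change was -0.29 (standard error 0.099, edgeR adjusted p = 0.182). Pik3ap1, which links the receptors to PI3 kinase, was at 22.6 ± 2.47 CPM against 27.1 ± 5.80.

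The 16 kinases and ligases downstream of MYD88 and TRIF had a median log2 fold change of -0.06 (-0.020 without WT replicate 3), and 6 of them were above 0. Irak2, a kinase recruited after MYD88, was at 39.98, 44.0 and 38.9 CPM against 32.2, 32.7, 37.6 and 36.7 CPM, with every value above WT and a log2 fold change of 0.24 (edgeR adjusted p = 0.187). Tab2, an adaptor of the kinase TAK1, was at 124 ± 7.17 CPM against 114 ± 7.77. Among 7 transcription factors, with a median log2 fold change of -0.14 (-0.055 without WT replicate 3), Rela of NF-kB was at 54.7 ± 3.65 CPM against 60.3 ± 6.88 and Irf3, the factor that TRIF activates, at 32.7 ± 2.12 CPM against 38.8 ± 4.14 (edgeR adjusted p = 0.212). The 10 inhibitors were split, with 5 above and 5 below 0, and 4 below 0 without WT replicate 3. Cyld, a deubiquitinase that restrains NF-kB, was at 90.3 ± 3.85 CPM against 78.8 ± 6.89 (edgeR adjusted p = 0.228), and Tollip, which binds the IRAK kinases, at 157 ± 9.26 CPM against 140 ± 10.8.

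The 11 genes listed as targets of the pathway had mean levels over the 7 libraries of at most 9.19 CPM. Il12b and Ifnb1 did not pass the filter, and the other 9 had a median log2 fold change of -0.57. WT replicate 3 was the highest library for 7 of these 9, and without it their median was -0.24. Ptgs2, the inducible cyclooxygenase and the most abundant of them, was at 6.38, 5.06 and 4.92 CPM against 8.95, 10.1, 16.7 and 12.3 CPM, without overlap, and its log2 fold change of -1.14 had an adjusted p of 0.0655 in edgeR's quasi-likelihood test. The 6 genes for endogenous ligands, proteins of damaged tissue that these receptors can bind, had a median of -0.79, and of -0.42 without WT replicate 3, the highest library for 4 of the 6. Tnc, the matrix protein tenascin C, was at 113, 118 and 85.9 CPM against 162, 154, 275 and 182 CPM, without overlap (log2 fold change -0.87, edgeR adjusted p = 0.109). Bgn, the proteoglycan biglycan, was at 46.1, 206 and 41.9 CPM against 207, 247, 217 and 174 CPM, so that replicate 2 of the libraries labelled Bmal1-/- lay within WT and the others far below it. Genes on the opposite strand overlap Ctsb, Hsp90b1, Tirap, Irak2, Irf3 and Tnc, whose values are uncertain for that reason.

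**Figure D5:**
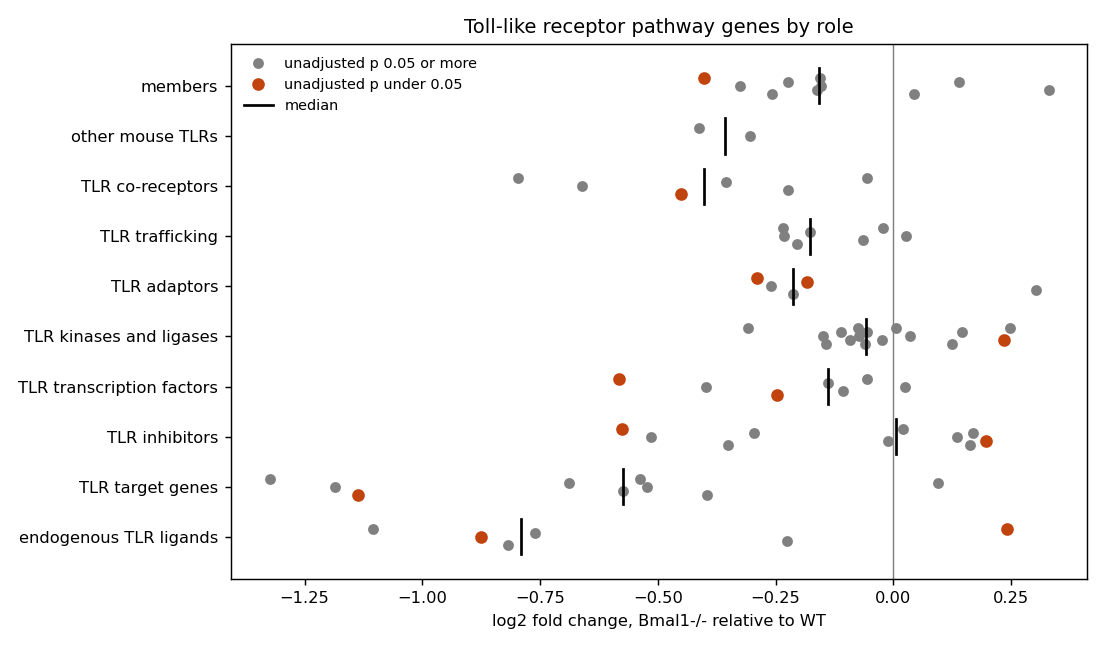
log2 fold change in Bmal1-/- against WT, by the labels (horizontal axis) for the 10 members and for each tested gene of 9 lists of the pathway (rows). Points in orange have an unadjusted p under 0.05, black bars are list medians, and no point passed the adjusted threshold of 0.05.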

How the data were processed

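The authors sequenced stranded poly-A libraries on an Illumina NextSeq 500 and, per the labels and methods, checked reads with FastQC 0.10.1, aligned them with Tophat2 to GRCm38.p6 and counted them per gene with HTSeq 0.10.0. The annotation release and the strand setting are not given in the sources used here. The deposited values are raw counts per gene, with 1 column for each of the 7 libraries.

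Here filterByExpr and TMM factors preceded a test of genotype over all 7 libraries, edgeR's quasi-likelihood F test (edgeR 4.0.16, R 4.3.3), adjusted by Benjamini-Hochberg over 15743 genes at a threshold of 0.05. The test was tried on simulated data first, where it recovered 168 of 200 planted changes with 8 false calls. DESeq2 recovered 186 of them with 70 false calls. The planted changes were larger than the estimate of any member, so the trial does not measure power for the members. Alternatives were DESeq2 1.42.0, limma-voom (limma 3.58.1), RLE or upper-quartile factors, a looser filter (1 count) or a stricter one (mean count 10), a sex term, a replicate block and the removal of each library in turn. TPM used GENCODE M21 exon lengths. Similar patterns used log2 CPM with a prior count of 2.

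The genes named are all 10 members, the most abundant gene and that of lowest p in each pathway list, and the 3 nearest genes by pattern for each member. Some genes that meet the last rule are not reported here. The members and lists were chosen with earlier results of these data known. Mice are the replicates, and counting error was at most 8.54% for any member.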

Additional observations from a re-analysis of the deposited data

Results flagged for a closer look

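Among the WT libraries, Tlr6 in replicate 3 lay far from the other WT libraries, at 6.86 CPM where the others were at 4.87, 5.01 and 5.12 CPM. The gap was 0.876 of the group's whole range, over Dixon's 95% critical value for 4 samples. The 4 WT values of each of 10 genes were examined in this way, and chance marks about 1 in 20 such groups. Tlr9 came next with a gap of 0.795, set by WT replicate 4, and Tlr8 with 0.774, set by WT replicate 3.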

How the results depend on the processing

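No member was called in any of the 15 alternatives. With the replicate block the median over members was -0.14 (log2 fold change) and 0 genes were called among all tested, but the numbers did not pair the samples (correlations of same-numbered libraries -0.22, 0.10 and -0.23). With 1 library left out, that median ran from -0.27 (without WT replicate 2) to -0.016 (without WT replicate 3), and the sign turned for Tlr1 (log2 fold change -0.26 to 0.030) and Tlr8 (-0.29 to 0.071), in both without WT replicate 3. For Tlr3 (-0.0048 to 0.11) it turned without Bmal1-/- replicate 1, and also without WT replicate 1 (-0.0023). Pathway genes called lower numbered 3 in DESeq2 (Ly86, Ptgs2 and Tnc) and 0 to 2 with a library left out: Bgn without Bmal1-/- replicate 2 (log2 fold change -2.26), Ptgs2 and Tnc without WT replicate 3 (-0.94 and -0.66). Those called higher numbered 0 to 1, Nfkbia without WT replicate 3 (0.37). Over all genes, 247 were called, against 1495 in DESeq2, 0 with the block and 57 to 730 with a library left out, the last without WT replicate 3. The causes were not tested.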
